A study of Mus musculus with 24 samples.

Results

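Gene expression in the cerebellum of Usp15-deficient mice was compared with that in wild-type cerebellum across all transcript clusters of an Affymetrix mouse exon array that carry a single gene symbol. A transcript cluster is the set of probes that stands for a gene, and 14996 of the 23332 clusters had a single symbol. Of these, 5206 had a mean log2 signal of 7 or more over the 6 cerebellum arrays and are called well-expressed here. The nearest clusters outside this limit were those of Frg1 and Stam2, with means of 6.9992 and 6.9993, and the nearest inside were those of Brix1 and Stradb, with means of 7.0003 and 7.0010.

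The 6 arrays are 3 of Usp15-deficient cerebellum, with the genotype usp15ko, and 3 of wild-type cerebellum, with the genotype wildtype. The series holds 12 gene-level arrays, and the other 6 are skeletal muscle of the same genotypes. All mice were C57BL/6 at 1 month of age, and no treatment besides dissection is given. Neither the labels nor the methods used here say which part of Usp15 was deleted, how the mice were bred or whether each array came from an animal of its own, so the p-values below cover the spread between arrays, which may be technical. The arrays of a group are named by the numbers 1 to 3 of their titles.

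The cerebellum tunes movement and balance. Mossy fibres excite granule neurons, granule neurons send parallel fibres to Purkinje cells, and Purkinje cells inhibit the cerebellar nuclei, while inhibitory interneurons and Bergmann glia shape the traffic between them. USP15 is a deubiquitinating enzyme that takes ubiquitin off other proteins. It is known to act on receptor-regulated SMAD proteins of the TGF-beta and BMP pathways and, with its partner SART3, on PRPF31 of the U4/U6.U5 particle of the spliceosome, so that the genes of splicing and of the unfolded protein response are of interest beside those of cerebellar cells.

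Usp15 was read first, as the targeted gene. Its gene-level log2 signal was 7.08, 6.99 and 7.19 in the Usp15-deficient arrays, against 7.63, 7.51 and 7.66 in the wild-type arrays. The groups did not overlap, and the means were 7.08 ± 0.10 in Usp15-deficient and 7.60 ± 0.08 in wild-type cerebellum (SD, n = 3 each). The log2 change, Usp15-deficient minus wild-type throughout, was -0.52 (SE 0.09) with a 95% confidence interval of -0.75 to -0.29 from limma. It ranked 1 by p among the well-expressed clusters and yet had an adjusted p of 0.996 over all clusters, so that even the deleted gene was not called.

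The 23 exon-level probe sets of Usp15, which stand for parts of its exons, show what the gene-level value averages. Probe set 4842622 had a log2 signal of 2.59, 3.48 and 3.28 in Usp15-deficient arrays, against 8.02, 7.80 and 8.09 in wild-type arrays, a difference of -4.85. Probe set 4427559 differed by -4.01 and probe set 4947876 by -2.08. The other 20 probe sets differed by less than 1 log2, up to 0.06 in the positive direction, and the median over the 23 was -0.41. The gene-level change of Usp15 was -0.52 beside these probe sets, and every bound given below is on the gene-level signal of the array and not on one exon or on protein.

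**Figure D1:**
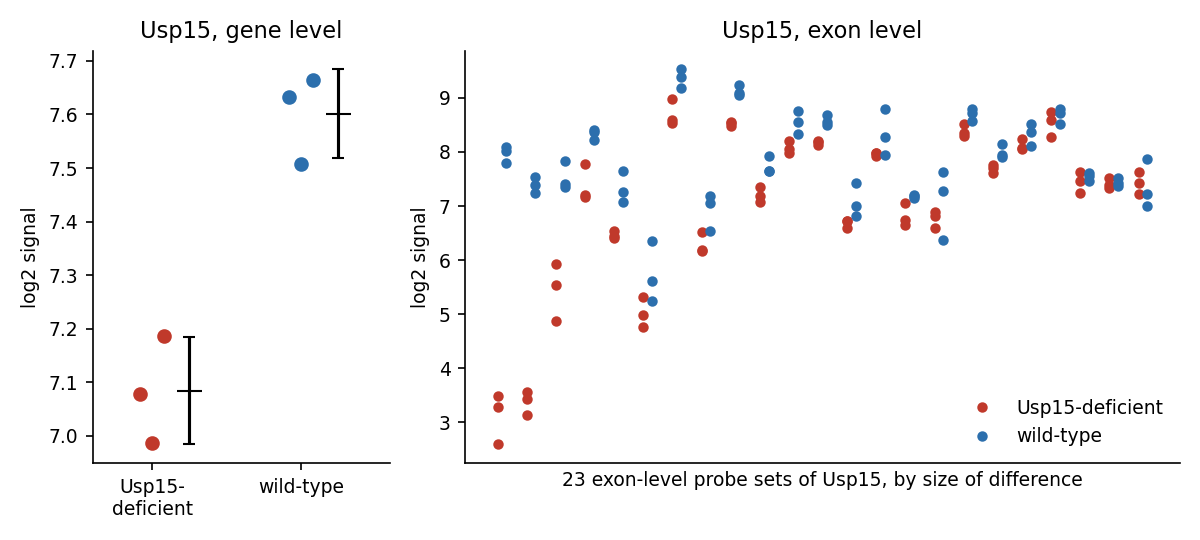
The left panel plots the gene-level log2 signal of Usp15 in each array, with the mean and SD (n = 3) beside the points, on an axis that does not start at 0. The right panel plots the log2 signal of each of its 23 exon-level probe sets in the 3 Usp15-deficient arrays (red) and the 3 wild-type arrays (blue). The groups are apart by 0.52 log2 at the gene level, while 2 probe sets differ by over 3 log2 and 20 by less than 1 log2.

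The tissue carried the markers of its label in both genotypes. All but 1 of the 28 measured granule neuron markers and 20 of the 23 measured Purkinje cell markers were well-expressed. The summed linear signal of the granule neuron markers was 32430, 28350 and 29650 in Usp15-deficient arrays and 32900, 27920 and 29500 in wild-type arrays. Of 8 measured skeletal muscle markers only Pvalb, a calcium buffer that Purkinje cells and interneurons also make, was well-expressed, and the other 7 had mean signals between 4.58 and 6.44. None of the 14 measured markers of neighbouring brain regions was well-expressed, with means between 4.04 and 6.99. The array medians over all clusters lay between 6.09 and 6.17, and no pair of the 6 arrays correlated below 0.968. An offset between arrays among the well-expressed clusters is given below.

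No gene was called as changed in the Usp15-deficient cerebellum. At an adjusted limma p under 0.05, 0 of 23332 clusters passed (0%), and the smallest adjusted p was 0.996. At an unadjusted p under 0.05, 825 of all clusters passed (3.54%). Among the well-expressed clusters 57 did (1.09%), of which 53 were higher (1.02%) and 4 were lower (0.0768%). With the number of the array as a block, the unadjusted count was 107 (2.06%), and 42 clusters were in both counts. After quantile normalization of the arrays it was 27, of which 9 were higher, so that the excess of higher over lower clusters did not hold under that scaling.

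The arrays differed by a small offset. The median log2 signal of the well-expressed clusters was 7.84, 7.83 and 7.86 in the Usp15-deficient arrays, against 7.72, 7.74 and 7.85 in the wild-type arrays. Wild-type arrays 1 and 2 lay lower and wild-type array 3 lay among the Usp15-deficient arrays. The log2 change was above 0 in 4339 of the 5206 well-expressed clusters (83.3%), with a median of 0.07, and after quantile normalization in 52.6%, with a median of 0.0043. Changes are set beside 0.07, the median of all well-expressed clusters, and each count of positive values below is given under both scalings.

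**Figure D2:**
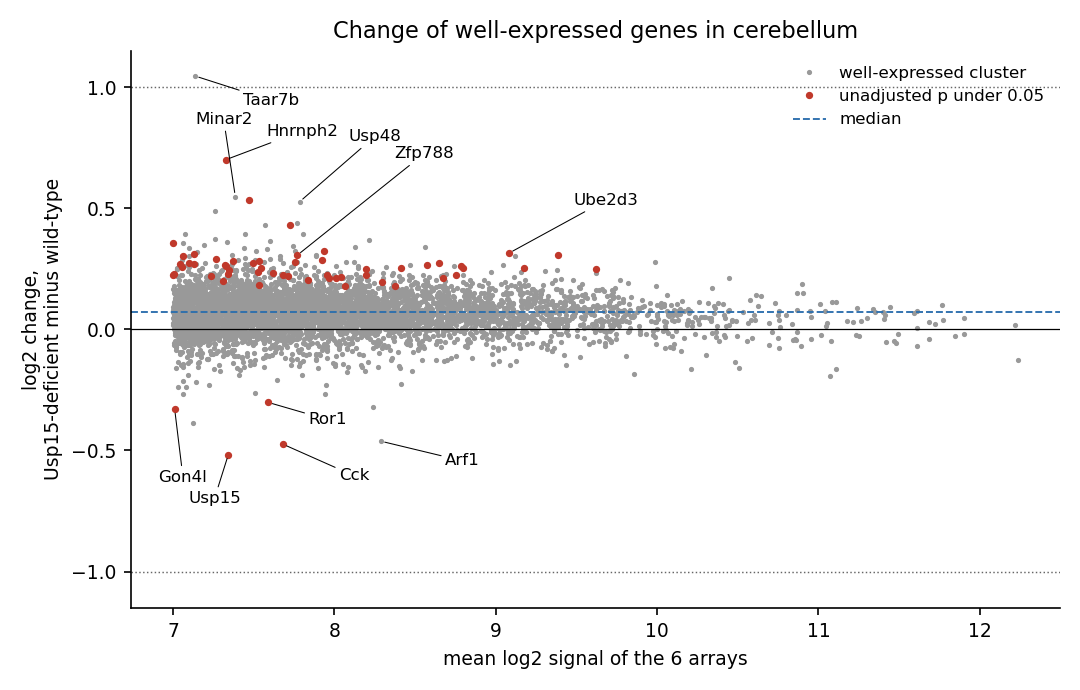
The plot shows the log2 change (Usp15-deficient minus wild-type) of the 5206 well-expressed clusters against their mean log2 signal over 6 arrays. Red points are the 57 clusters at an unadjusted p under 0.05, the dashed line is the median of 0.07, and dotted lines mark changes of 1 log2. All clusters but Taar7b lie within 1 log2, and Usp15 is the lowest point.

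A p that misses the threshold does not show that a gene stayed the same, so the size of change that the data still allow is given. A gene is called bounded where a pair of one-sided limma tests placed its change within 1 log2, that is within a factor of 2 either way, at an adjusted p under 0.05 over all clusters. This held for 5186 of the 5206 well-expressed clusters (99.6%), and with the stricter factor of 1.5 for 5005 (96.1%). Usp15, the targeted gene, was itself among those bounded within 1 log2. Its probe sets 4842622 and 4427559 differed by -4.85 and -4.01, so a gene-level bound does not cover single parts of a gene. The 95% confidence interval lay within 1 log2 in 5173 clusters (99.4%), so that some bounded clusters had an interval that passed 1 log2. It lay within 0.5 log2 in 4584 clusters (88.1%). The median standard error was 0.10, and the median of the farther interval end, the largest change an interval still holds, was 0.34.

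The bounds depended little on signal above the limit and more below it. Of the 3083 clusters with a mean signal from 7 to 8, 99.5% were bounded within 1 log2, as were 99.8% of the 1449 from 8 to 9. Of the 3116 clusters with a single symbol and a mean below 5, 92.5% were. Over all 14996 clusters with a single symbol the count was 14685 (97.9%), and over all 23332 clusters it was 21325 (91.4%).

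**Figure D3:**
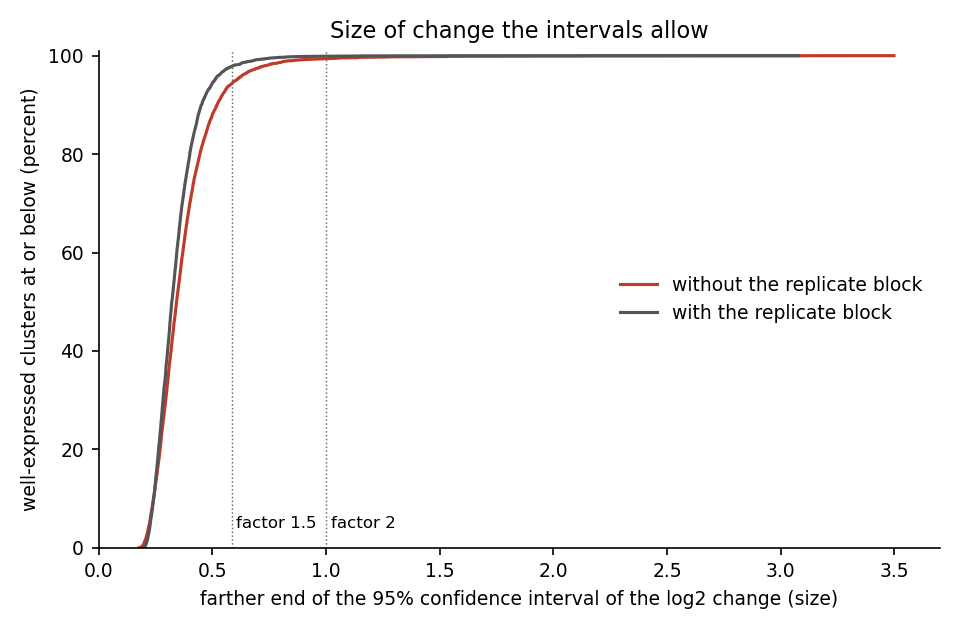
The curves give the percentage of the 5206 well-expressed clusters whose 95% confidence interval reaches no farther from 0 than the size on the horizontal axis (log2), without and with the array number as a block. Dotted lines mark factors of 1.5 and 2. The curve without the block reaches 88.1% at 0.5 log2, and its tail ends with Ttr, whose interval reaches farthest.

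The 10 well-expressed genes of smallest p with a positive change were of many kinds. Zfp788, a zinc finger protein gene, had 7.91, 7.91 and 7.95 in Usp15-deficient arrays, against 7.59, 7.66 and 7.60 in wild-type arrays, a log2 change of 0.31 (SE 0.07). Hnrnph2, whose product is an hnRNP protein that binds G-rich RNA and takes part in splicing, had 7.86, 7.37 and 7.79 against 7.15, 7.04 and 6.74, a log2 change of 0.70 (SE 0.17). Neither gene overlapped between the groups. The interval of Hnrnph2 ran from 0.27 to 1.13, it was the only one of the 53 higher clusters not bounded within 1 log2, and its change over the median of its exon-level probe sets was 0.40.

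The rest had smaller values. Brix1, a factor of ribosome assembly, had 7.19, 7.11 and 7.23 in Usp15-deficient arrays, against 6.90, 6.65 and 6.92 in wild-type arrays, a change of 0.36. Rybp, a Polycomb protein that binds ubiquitinated histone H2A, had 8.69, 8.70 and 8.73 against 8.38, 8.53 and 8.41, a change of 0.27. In both genes the groups were apart. The log2 change was 0.28 for Cops4, a subunit of the COP9 signalosome that removes NEDD8 from cullins, 0.28 for Btg2, an early-response gene that restrains the cell cycle, 0.30 for Sdc2, a heparan sulfate proteoglycan, and 0.31 for Akr1a1, an aldehyde reductase. It was 0.26 for Drg2, a GTP-binding protein, and 0.25 for Atp6v1d, a subunit of the proton pump of lysosomes and synaptic vesicles. The 53 higher clusters had changes between 0.18 and 0.70 with a median of 0.25, and in 52 of them the groups did not overlap. Of the 46 with exon-level probe sets, 45 also had a positive change in the exon-level median. The 53 were picked for a positive change and the exon-level values come from the same arrays, so this is no separate support. Over the well-expressed clusters the median change at the exon level was 0.08, also above 0. Of all well-expressed clusters, 514 did not overlap in the higher direction (9.87%) and 27 in the lower (0.519%). After quantile normalization 9 of the 53 still had an unadjusted p under 0.05.

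Beside Usp15, 3 well-expressed genes had a negative change at an unadjusted p under 0.05. Gon4l, a nuclear regulator of transcription, had 6.90, 6.71 and 6.93 in Usp15-deficient arrays, against 7.14, 7.10 and 7.29 in wild-type arrays, a log2 change of -0.33 (SE 0.10). Ror1, a receptor-like kinase that binds Wnt5a, had 7.52, 7.45 and 7.35 against 7.70, 7.65 and 7.88, a change of -0.30 (SE 0.10). Cck, the gene of the neuropeptide cholecystokinin, had 7.22, 7.51 and 7.59 against 7.69, 8.17 and 7.89, a change of -0.47 (SE 0.16) with an interval of -0.87 to -0.08. In each of these 3 genes the groups did not overlap, and with quantile normalization the changes were -0.39, -0.37 and -0.54. Over its exon-level probe sets Ror1 had -0.04 and Cck -0.44. The change of Gon4l was -0.05 over muscle arrays of the same genotypes and that of Cck -0.03.

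The next 6 genes by p on the lower side had intervals that included 0 in the fit without the block. Arf1, a small GTPase of vesicle budding at the Golgi, had 8.06, 7.88 and 8.23 in Usp15-deficient arrays, against 8.41, 8.21 and 8.93 in wild-type arrays, a log2 change of -0.46. Its interval was -0.96 to 0.04, and -0.78 to -0.15 with the array number as a block, at an adjusted p of 0.833. Its groups overlapped through wild-type array 2, and the median of its exon-level probe sets gave 0.04. The change was -0.32 for Siah1a, a ubiquitin ligase, and -0.17 for Igfbp5, a secreted binding protein of insulin-like growth factors. B3gnt7, Rbm15b and Lrrc3 had changes of -0.19, -0.16 and -0.15, and B3gnt7 had 0.06 by its exon-level median.

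The programmes of the cerebellum are described by 29 lists of 787 genes, of which 640 had a cluster of their own and 410 were well-expressed. None of the 640 was called (0%), 7 of them had an unadjusted p under 0.05, beside 2.15% of all clusters with a single symbol, and 4 of the 410 did, beside 1.09% of all well-expressed clusters. The other genes of the lists were not analysed here. Of the 410, 405 were bounded within 1 log2 and 387 within a factor of 1.5. Their median log2 change was 0.05 and the median of their farther interval ends was 0.34, the same as over all well-expressed clusters. The medians of the 22 lists with 5 or more well-expressed members lay between -0.10 and 0.11. After quantile normalization they lay between -0.17 and 0.05, and many that were above 0 fell below it. The median of voltage-gated channels, for example, went from 0.04 to -0.03, while that of proteasome and ubiquitin genes stayed above 0 at 0.05. The list medians given below are those of the deposited values. In whole tissue, fewer cells of a type and less RNA per cell cannot be told apart.

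**Figure D4:**
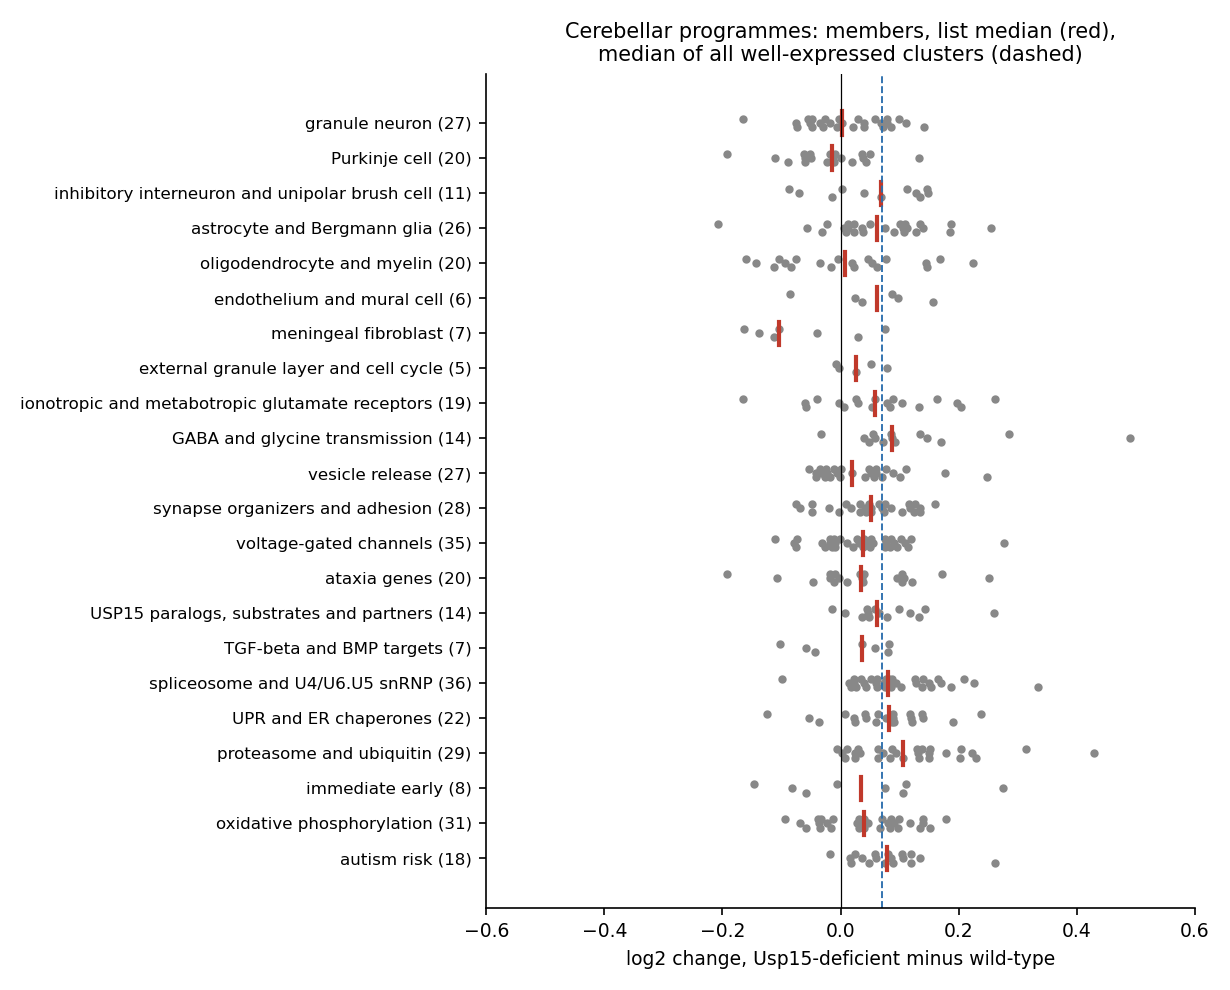
Each point is the log2 change (Usp15-deficient minus wild-type) of a well-expressed member of a list, with the number of such members in brackets, for the 22 lists with 5 or more of them. The red bar is the list's median and the dashed line the median of 0.07 over all well-expressed clusters. The list medians run from -0.10 (meningeal fibroblast) to 0.11 (proteasome and ubiquitin).

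Granule neurons, the small excitatory cells that outnumber all others in the cerebellum, had list members on both sides of 0. Of 27 well-expressed members 14 had a positive change, 9 after quantile normalization, and the median was 0.00. All 27 were bounded within a factor of 1.5. Gabra6, the GABA-A receptor subunit of mature granule neurons, had 10.84, 10.28 and 10.59 in Usp15-deficient arrays, against 10.83, 10.29 and 10.38 in wild-type arrays. Its change of 0.07 had the farthest-reaching interval of the list, -0.42 to 0.56. The change was 0.10 for Vsnl1, a neuronal calcium sensor, -0.03 for Chn2, a Rac-regulating chimaerin, and -0.05 for Nrep, a neuronal protein, which was 0.14 without wild-type array 1. The most negative change of the list was that of Grm4, the presynaptic glutamate receptor mGluR4 of parallel fibres. It had 10.20, 10.16 and 10.02 in Usp15-deficient arrays, against 10.33, 10.24 and 10.31 in wild-type arrays, a change of -0.17 with an interval of -0.38 to 0.05.

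Purkinje cells are the sole output of the cerebellar cortex. Of their 20 well-expressed members 7 had a positive change, 3 after quantile normalization, with a median of -0.02, and all 20 were bounded within a factor of 1.5. Pcp4, a calmodulin-binding peptide, had 11.97, 11.89 and 11.82 in Usp15-deficient arrays, against 11.91, 11.87 and 11.95 in wild-type arrays, a change of -0.02 with an interval of -0.22 to 0.18. Aldoc, the brain aldolase known as zebrin II that marks Purkinje cell stripes and is also made by astrocytes, had a change of 0.04. Car8, whose product dampens the IP3 receptor of Purkinje cells, had 11.19, 10.82 and 10.92 in Usp15-deficient arrays, against 11.25, 11.14 and 11.12 in wild-type arrays. The groups of Car8 overlapped through array 1, and its change of -0.19 had an interval of -0.48 to 0.10.

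Inhibitory interneurons and unipolar brush cells had 11 well-expressed markers, of which 8 had a positive change, 5 after quantile normalization, with a median of 0.07. The change was 0.13 for Gad1 and 0.15 for Gad2, the enzymes that make GABA, and -0.07 for Kit, a receptor tyrosine kinase of molecular layer interneurons. Of the 11, 10 were bounded within 1 log2, and the exception was Sst, the neuropeptide somatostatin, described below with the array numbers.

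Astrocytes and Bergmann glia, the radial glia that ensheathe Purkinje synapses, had 26 well-expressed markers, all bounded within 1 log2 and 24 within a factor of 1.5. Of these 22 had a positive change, 15 after quantile normalization, with a median of 0.06. The change was 0.01 for Ndrg2, a cytoplasmic astrocyte protein, and 0.04 for Apoe, the lipid carrier. Fabp7, a fatty acid-binding protein of radial and Bergmann glia, had 10.89, 11.12 and 10.96 in Usp15-deficient arrays, against 10.71, 10.98 and 10.71 in wild-type arrays, a change of 0.19 whose groups overlapped. Members ranged from -0.21 for Hopx to 0.26 for Itih3.

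Oligodendrocyte and myelin genes had wider intervals than the neuronal lists. The median of the farther interval ends was 0.50 over 20 well-expressed members, against 0.34 over all well-expressed clusters. Of the 20, 10 had a positive change, 5 after quantile normalization, and the median was 0.01. Mbp, myelin basic protein, had 10.32, 10.51 and 10.46 in Usp15-deficient arrays, against 10.48, 10.56 and 10.73 in wild-type arrays, a change of -0.16 with an interval of -0.41 to 0.09. Cnp, a myelin phosphodiesterase, had 9.83, 10.42 and 10.34 against 9.76, 10.50 and 10.27, a change of 0.02. In Cnp both arrays numbered 1 lay below the other 4, and so did they in Trf, the iron carrier transferrin, and in Tspan2, a myelin tetraspanin whose interval of -0.59 to 1.04 reached farthest. The summed linear signal of the list was 8301, 10580 and 10830 in Usp15-deficient arrays and 8114, 11180 and 10780 in wild-type arrays, low in array 1 of both genotypes.

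The remaining cell types had few well-expressed markers. Precursors of oligodendrocytes had 3, with changes between 0.04 for Cspg5 and 0.15 for Gpr17. Microglia had C1qb and Ly86, with changes of 0.05 and 0.07, and 18 dim markers, of which Siglech, a lectin of microglia, had an unadjusted p under 0.05. Siglech had 5.85, 5.92 and 5.96 in Usp15-deficient arrays, against 6.07, 6.09 and 6.18 in wild-type arrays, a change of -0.20 (SE 0.08) without overlap. Over all 20 measured microglia markers 12 had a positive change, 11 after quantile normalization, and the median was 0.06. Endothelial and mural cells had 6 well-expressed markers, with Slc2a1, the glucose transporter of the blood-brain barrier, at 0.16, Vtn at 0.09 and Flt1 at 0.04.

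Meningeal fibroblasts had the lowest list median, -0.10 over 7 members, of which 2 had a positive change and 1 after quantile normalization. Col1a1, a chain of type I collagen, had 7.14, 7.28 and 7.09 in Usp15-deficient arrays, against 7.29, 7.75 and 6.96 in wild-type arrays, a change of -0.16 that was 0.04 without wild-type array 2. The change was -0.11 for Dcn, the collagen-binding proteoglycan decorin, -0.04 for Igf2, a growth factor, and 0.08 for Ptgds, a prostaglandin D synthase of the meninges. The summed linear signal of all 12 markers was 3524, 3614 and 3669 in Usp15-deficient arrays and 3578, 3670 and 3472 in wild-type arrays, which overlapped.

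At 1 month the external granule layer, where granule neurons are born, has gone, and most genes of its list were dim. Of 21 measured genes of this list 5 were well-expressed, all bounded within a factor of 1.5, of which 3 had a positive change and 1 after quantile normalization, with a median of 0.03. The change was 0.05 for Ptch1, the receptor of Sonic hedgehog, and 0.08 for Sema6a, a semaphorin of granule cell migration, and Ptch1 had -0.07 over its exon-level probe sets. Ccnd1, the cell-cycle gene of cyclin D1, had 7.66, 7.78 and 7.51 in Usp15-deficient arrays, against 7.73, 7.58 and 7.67 in wild-type arrays, and the groups overlapped.

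Glutamate is the transmitter of mossy, climbing and parallel fibres. Of 19 well-expressed glutamate receptor and postsynaptic density genes 14 had a positive change, 9 after quantile normalization, with a median of 0.06, and 17 were bounded within a factor of 1.5. Gria4, an AMPA receptor subunit of Bergmann glia and granule neurons, had 10.12, 10.17 and 10.31 in Usp15-deficient arrays, against 10.18, 10.18 and 10.17 in wild-type arrays, a change of 0.03. Dlg4, the scaffold PSD-95, had a change of 0.08 with an interval of -0.11 to 0.27. Grin2b, an NMDA receptor subunit that granule neurons give up as they mature, had 6.69, 7.79 and 7.71 against 6.63, 7.45 and 7.33, and both arrays numbered 1 lay below the other 4.

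Genes of GABA and glycine transmission had 14 well-expressed members, of which 13 had a positive change, 10 after quantile normalization, with a median of 0.09. The change was -0.03 for Gabbr1, a subunit of the GABA-B receptor, and 0.06 for Gabrb2, a GABA-A receptor subunit, with an interval of -0.15 to 0.26. Of the 14, 12 were bounded within 1 log2, and the exceptions were Slc6a11, the GABA transporter GAT-3 of astrocytes, and Gabra3, a GABA-A receptor subunit.

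Genes of vesicle release had 27 well-expressed members, all bounded within a factor of 1.5, of which 15 had a positive change, 9 after quantile normalization, with a median of 0.02. The change was 0.02 for Snap25 and -0.04 for Vamp2, partners in the SNARE complex that fuses vesicles, and -0.04 for Syt1, the calcium sensor of release. Napb, a SNAP protein that takes SNARE complexes apart, was the member with an unadjusted p under 0.05. It had 9.78, 9.60 and 9.84 in Usp15-deficient arrays, against 9.49, 9.42 and 9.57 in wild-type arrays, a change of 0.25 (SE 0.10), and 0.24 over its exon-level probe sets.

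Synapse organizers and adhesion molecules had 28 well-expressed members, all bounded within 1 log2, of which 22 had a positive change and 12 after quantile normalization, with a median of 0.05. Cbln1, which granule neurons secrete to tie parallel fibre endings to Purkinje cells, had 10.81, 10.64 and 10.71 in Usp15-deficient arrays, against 10.98, 10.67 and 10.73 in wild-type arrays, a change of -0.08 with an interval of -0.35 to 0.20. Its relative Cbln3 had a change of -0.05. The change was 0.03 for Lrrtm3, a postsynaptic adhesion molecule, and 0.12 for Lrrtm2, a close relative that binds neurexins, with the farthest-reaching interval of the list, to 0.69.

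Voltage-gated channels had 35 well-expressed members, all bounded within a factor of 1.5, of which 22 had a positive change and 12 after quantile normalization, with a median of 0.04. Cacna1a, the P/Q-type calcium channel of Purkinje cells and of release sites, had 10.21, 10.07 and 10.06 in Usp15-deficient arrays, against 10.23, 10.04 and 10.09 in wild-type arrays, a change of -0.01. The change was -0.07 for Kcnd2, the A-type potassium channel of granule neurons, and 0.08 for Kcnj3, a channel opened by G proteins. Hcn2, a pacemaker channel, had the farthest-reaching interval, -0.58 to 0.42.

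Genes whose human counterparts are mutated in hereditary ataxia had 20 well-expressed members, all bounded within 1 log2, of which 12 had a positive change and 8 after quantile normalization, with a median of 0.03. The change was 0.03 for Eef2, the elongation factor of translation, and 0.04 for Slc1a3, the glutamate transporter of Bergmann glia. Ppp2r2b, a regulatory subunit of protein phosphatase 2A, had 7.47, 7.84 and 7.91 in Usp15-deficient arrays, against 7.17, 7.60 and 7.71 in wild-type arrays. Each Usp15-deficient array was above the wild-type array of its number. The share of clusters with this order was not counted, and 83.3% of all well-expressed clusters had a positive change. The change of Ppp2r2b was 0.25, and its interval reached 0.71, or ran from 0.05 to 0.46 with the block. The labels do not say that the numbers pair the arrays, and no cluster passed an adjusted limma p under 0.05 with the block. Of 18 well-expressed genes linked to autism 17 had a positive change, 11 after quantile normalization, with a median of 0.08. Among these the change was 0.06 for Ank2, an ankyrin of axons, -0.02 for Reln, which granule neurons secrete, and 0.03 for Dyrk1a, a kinase, with -0.05 for Dyrk1a after quantile normalization.

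Paralogs, substrates and partners of USP15 were looked at next. Of the paralogs, Usp4 had 8.38, 8.40 and 8.42 in Usp15-deficient arrays, against 8.28, 8.28 and 8.34 in wild-type arrays, a change of 0.10 with an interval of -0.08 to 0.28. Usp11 had 7.66, 7.95 and 8.01 against 7.44, 7.70 and 7.70, a change of 0.26 with an interval of -0.07 to 0.59. With the block the interval of Usp11 was 0.06 to 0.46, at an adjusted limma p of 0.833. The groups of Usp4 did not overlap by a narrow margin and those of Usp11 did. All 14 well-expressed paralogs, substrates and partners were bounded within a factor of 1.5, of which 13 had a positive change and 6 after quantile normalization, with a median of 0.06. Among the brightest the change was 0.12 for Skp1, an adaptor of SCF ubiquitin ligases, 0.06 for Apc, a scaffold of beta-catenin breakdown, and 0.05 for Cul3, a cullin. The dim Cops5, the catalytic subunit of the COP9 signalosome, had 6.95, 6.97 and 6.85 in Usp15-deficient arrays, against 6.61, 6.83 and 6.61 in wild-type arrays, a change of 0.24 (SE 0.10) with an unadjusted p under 0.05.

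Targets of TGF-beta and BMP signals were mostly dim, and 7 of the 26 measured were well-expressed, all bounded within a factor of 1.5, of which 4 had a positive change and 2 after quantile normalization, with a median of 0.04. The change was 0.08 for Id2 and 0.06 for Id4, inhibitors of basic helix-loop-helix factors that BMP signals induce, and -0.06 for Ski, a corepressor of SMAD proteins. The interval of Id2, the farthest-reaching of the list, ran from -0.27 to 0.44.

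Spliceosome genes were nearly all on the positive side as deposited and less so after quantile normalization. Of 36 well-expressed members 35 had a positive change and 25 after quantile normalization, with a median of 0.08 beside 0.07 for all well-expressed clusters. No member had an unadjusted p under 0.05, and 35 were bounded within a factor of 1.5. Some splicing genes outside the list had such a p, beside 1.02% of all well-expressed clusters on the higher side. Among them were Hnrnph2 at 0.70, given above, Zmat2 at 0.29, Ik at 0.18 and Snrpa1 at 0.27. Zmat2, Ik and Snrpa1 were picked because they passed, and the splicing genes outside the list were not counted. With the block the interval of Ik, -0.01 to 0.38, included 0 and those of the others named did not. The change was 0.06 for Prpf8, the core U5 protein, and 0.08 for Snrnp200, the U5 helicase. It was 0.08 for Hnrnpu, 0.08 for Rbfox1 and 0.04 for Rbfox3, RNA-binding proteins that steer splicing. U2af2, which binds the polypyrimidine tract at 3' splice sites, had 7.68, 7.05 and 7.06 in Usp15-deficient arrays, against 7.08, 6.75 and 6.95 in wild-type arrays. Its groups overlapped, and its change of 0.33 had an interval of -0.15 to 0.82. Prpf3 and Prpf31, of the U4/U6 part, were dim with changes of 0.18 and 0.11, and Sart3, also dim, had 0.00.

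Genes of the unfolded protein response and ER chaperones had 22 well-expressed members, all bounded within 1 log2 and 21 within a factor of 1.5. Of these 19 had a positive change and 12 after quantile normalization, with a median of 0.08, and none had an unadjusted p under 0.05. Canx, the lectin chaperone calnexin, had 9.76, 9.80 and 9.84 in Usp15-deficient arrays, against 9.73, 9.68 and 9.57 in wild-type arrays, a change of 0.14 with an interval of -0.06 to 0.34 and without overlap. The change was 0.02 for Calr, its soluble relative, and 0.12 for Ssr1, part of the translocon complex. It was 0.19 for Hspa5, the chaperone BiP and a usual readout of the response, 0.09 for Xbp1, one of its transcription factors, and -0.08 for the dim Ddit3, known as CHOP. Pdia4, a disulfide isomerase, had the farthest-reaching interval, to 0.77.

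Proteasome and ubiquitin genes had the highest list median, 0.11 over 29 well-expressed members, of which 28 had a positive change and 18 after quantile normalization. Of the 29, 2 had an unadjusted p under 0.05. Psmd14, the proteasome subunit that cuts ubiquitin chains off substrates, had 8.88, 8.87 and 8.85 in Usp15-deficient arrays, against 8.63, 8.68 and 8.61 in wild-type arrays, a change of 0.22 (SE 0.07), and 0.28 over its exon-level probe sets. Ube2d3, a ubiquitin-conjugating enzyme, had 9.14, 9.13 and 9.45 against 8.84, 9.01 and 8.92, a change of 0.31 (SE 0.12) that was -0.03 over its exon-level probe sets. In both genes the groups did not overlap. The change was 0.01 for Psmd11 and 0.09 for Psmd2, lid and base subunits, and 0.08 for Sqstm1, a receptor that brings ubiquitinated cargo to autophagy. Uchl1, the abundant neuronal ubiquitin hydrolase, had 7.32, 8.04 and 7.99 in Usp15-deficient arrays, against 6.81, 7.56 and 7.68 in wild-type arrays, a change of 0.43 with an interval of -0.30 to 1.16, and was the only member not bounded. With the block its interval was 0.20 to 0.66 and it was bounded within 1 log2, at an adjusted p of 0.833 for the change itself.

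Immediate early genes, which neurons switch on with activity or handling, had 8 well-expressed members, 4 with a positive change under either scaling. The median of their farther interval ends was 0.60, the largest of the 22 lists with 5 or more well-expressed members, and Btg2, given above, was the member with an unadjusted p under 0.05. Dusp1, a phosphatase of MAP kinases, had 9.74, 8.60 and 9.42 in Usp15-deficient arrays, against 9.12, 9.13 and 9.19 in wild-type arrays, a change of 0.11. The change was -0.15 for Nr4a2 and -0.08 for Nr4a3, orphan nuclear receptors, both with array 1 of each genotype above the others, and 0.11 for Jun.

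Interferon response genes were dim, with B2m and Stat2 as the well-expressed members at 0.13 and 0.03. Psmb8, a subunit of the immunoproteasome, had 4.69, 4.57 and 4.73 in Usp15-deficient arrays, against 4.90, 5.07 and 4.81 in wild-type arrays, a change of -0.26 (SE 0.10) with an unadjusted p under 0.05, and with the block an interval of -0.58 to 0.06. Over the 21 measured members 13 had a positive change and 12 after quantile normalization. Oxidative phosphorylation genes had 31 well-expressed members, all bounded within a factor of 1.5, of which 21 had a positive change and 14 after quantile normalization, with a median of 0.04. Among the brightest the change was -0.04 for Atp5b and 0.05 for Atp5d, subunits of ATP synthase, and -0.07 for Ndufs7, a subunit of complex I.

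Genes that could not be bounded mostly varied with the number of the array in both genotypes. Of the 20 well-expressed clusters not bounded within 1 log2, both arrays numbered 1 lay below the other 4 in 16. Ttr, the thyroxine carrier made by the choroid plexus, had 7.67, 12.25 and 11.52 in Usp15-deficient arrays, against 8.66, 10.66 and 12.20 in wild-type arrays. Its change of -0.03 had an interval of -3.50 to 3.45. Slc6a11 had 7.57, 9.87 and 9.76 in Usp15-deficient arrays, against 7.59, 9.80 and 9.29 in wild-type arrays. Sst had 6.86, 8.48 and 8.39 against 6.95, 8.43 and 8.61. For Slc6a11 and Sst the arrays numbered 1 were close to each other across genotypes and far below the rest.

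The other genes of this kind included receptors and adhesion molecules. Chrm2, a muscarinic acetylcholine receptor, had 6.71, 8.65 and 8.38 in Usp15-deficient arrays, against 6.80, 8.10 and 7.81 in wild-type arrays. Chrna4, a nicotinic receptor subunit, had 6.15, 7.69 and 7.67 against 6.13, 7.54 and 7.24. Nrgn, the calmodulin-binding neurogranin, had 6.62, 7.39 and 7.60 against 5.86, 7.45 and 7.69. Pcdh7, Pcdh10, Baalc, Timp2, Tmem130, Vstm2a, Minar2, Gabra3 and 6330403K07Rik also had both arrays numbered 1 below the rest. With the array number as a block, 17 of the 20 gained a bound, 3 stayed without one, Arxes1 lost its bound, and 5202 of the 5206 well-expressed clusters were bounded (99.9%).

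AY036118 had the opposite order, with 9.56, 7.60 and 7.75 in Usp15-deficient arrays and 9.67, 8.32 and 7.60 in wild-type arrays. Taar7b, a trace amine receptor, had a single low array, with 7.49, 7.98 and 7.51 in Usp15-deficient arrays and 7.19, 8.16 and 4.48 in wild-type arrays. Usp48, another deubiquitinating enzyme, had 8.53, 7.69 and 7.93 in Usp15-deficient arrays, against 7.83, 7.44 and 7.29 in wild-type arrays, and overlapped.

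Some dim genes were high in the arrays numbered 2. Slc6a4, the serotonin transporter, had 5.58, 6.91 and 5.61 in Usp15-deficient arrays, against 5.78, 6.69 and 5.58 in wild-type arrays. Tph2, the enzyme of serotonin synthesis in neurons, had 4.74, 6.42 and 4.90 against 4.61, 5.96 and 4.76. Array 2 was the highest of its group in both genotypes for both genes. The summed linear signal of the 14 markers of neighbouring regions was 570.7, 764.9 and 570.7 in Usp15-deficient arrays and 587.2, 722.1 and 603.4 in wild-type arrays. That of the 9 choroid plexus markers was 622, 5737 and 3600 in Usp15-deficient arrays and 840.6, 2102 and 5615 in wild-type arrays, low in array 1 of both. The part of these cells and regions in the values above was not tested.

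**Figure D5:**
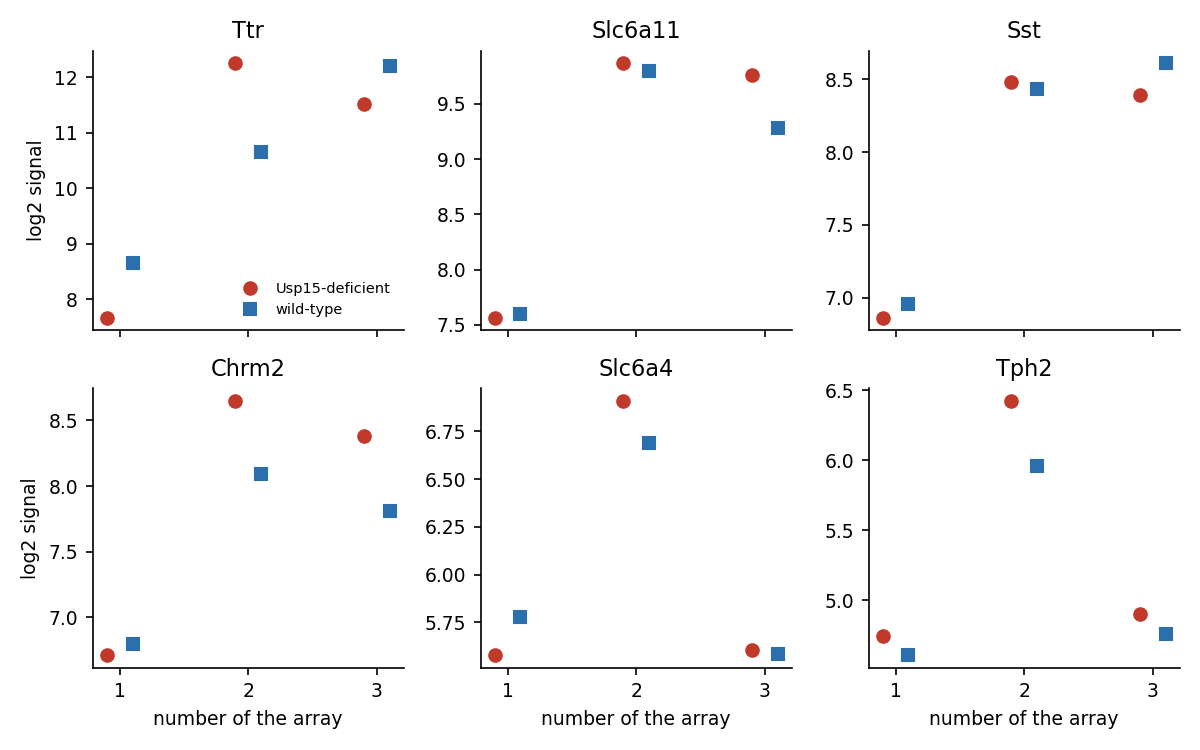
The plots give the log2 signal of 6 genes in each Usp15-deficient (red circles) and wild-type (blue squares) array against the number of the array, each on its own axis, which does not start at 0. Ttr, Slc6a11, Sst and Chrm2 are low in array 1 of both genotypes, and Slc6a4 and Tph2 are high in array 2 of both.

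Over all well-expressed clusters, both arrays numbered 1 lay below the other 4 in 1119 (21.5%) and above them in 652 (12.5%). Both arrays numbered 2 lay below the other 4 in 698 (13.4%) and above in 250 (4.8%), and both numbered 3 lay below in 130 (2.5%) and above in 662 (12.7%). With genotype in the model, the contrast of array number 1 against the others was below -0.5 in 93 clusters (1.79%). No cluster passed an adjusted limma p under 0.05 for any of the 3 numbers (0%). This fit of 6 arrays had little power. For number 1 even Slc6a11, at -2.10 (SE 0.14), had an adjusted limma p of 0.234. The 0% thus does not show that the number had no effect.

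The change in cerebellum was compared with that in skeletal muscle of the same genotypes by the interaction of genotype and tissue in all 12 arrays. No cluster passed at an adjusted limma p under 0.05 (0%), and 679 of all clusters had an unadjusted p under 0.05 (2.91%). The smallest adjusted limma p was 0.249, and Usp15 was among the clusters at that value. The change of Usp15 was -1.87 in muscle and -0.52 in cerebellum, and the difference, cerebellum minus muscle, was 1.35 (SE 0.18).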

How the data were processed

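RNA of Usp15-deficient and wild-type cerebellum was labelled with a whole-transcript kit and hybridised to Affymetrix mouse exon arrays, 3 of each genotype. The authors deposited log2 signals, 1 per transcript cluster at the gene level and 1 per probe set at the exon level. Background correction, normalization and software are not stated in the labels or methods used here, nor is the genome build, so that no coordinates are given. Arrays carry no read depth, and their number limits the precision. Of 23332 clusters, 1019 had several symbols and 7317 none, and these entered the fit and the adjustment but are not named. Gene numbers of 14941 clusters matched the GRCm38.p6 gene table, which altered 0 symbols. Where a symbol had several clusters, lists used the one of highest mean.

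Usp15-deficient minus wild-type differences of the deposited log2 values were fitted with limma 3.58.1 in R 4.3.3 (lmFit, eBayes, no covariate), two-sided, with Benjamini-Hochberg adjustment over all clusters. Bounds came from a pair of one-sided moderated tests, also adjusted over all clusters. The scripts were tested on simulated data. The alternatives were quantile normalization, the array number as a block, each array left out, a fit of all 12 arrays, a trended and robust prior, the median of exon-level probe sets, Student's t-test and other limits on signal. The methods name Student's t-test among their general statistics and name no test for the arrays. Leaving out both arrays of a number, and the contrasts between numbers, were added after seeing the data. Array numbers were taken to pair the samples from the data: deviations from the group means correlated at 0.218, 0.203 and 0.103 between same-numbered arrays of the genotypes, and at -0.159 to -0.0392 between others. The deviations of a group sum to 0 in each cluster, so the negative values follow from the positive ones and are no separate evidence. The block rests on a pairing read from the same arrays to which it was applied.

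The members and the 29 lists were chosen with earlier results of these data known. The genes named were Usp15, the 10 of smallest p on each side, and in each list the 3 of highest signal, those at an unadjusted p under 0.05 and the one whose interval reached farthest. The lowest and highest members of lists, the 20 genes without a bound, Usp4, Hspa5, Xbp1, Ddit3, Prpf8, Snrnp200, Prpf3, Prpf31, Sart3, Zmat2, Ik, Snrpa1, Ccnd1, Slc6a4, Tph2 and the dim genes were chosen after their values were seen or for their roles.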

Additional observations from a re-analysis of the deposited data

How the results depend on the processing

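No cluster was called under any alternative run, including adjustment over the well-expressed clusters alone, where the smallest adjusted limma p was 0.978. By Student's t-test 973 of all clusters had an unadjusted p under 0.05 and 0 passed after Benjamini-Hochberg. The unadjusted count of 57 well-expressed clusters was 27 with quantile normalization, 107 with the array number as a block, 21 in the fit of all 12 arrays, 104 with the trended and robust prior and 251 by Student's t-test. It ranged from 15 to 117 with each array left out, at 36 and 15 without Usp15-deficient arrays 2 and 3, and at 31, 37 and 117 without wild-type arrays 1, 2 and 3. It was 37, 9 and 21 without both arrays numbered 1, 2 and 3. The cause of these moves was not tested. The block also raised the bounded count to 5202, with 17 clusters gained and 1 lost. Among the intervals that it moved off 0 were those of Arf1, Ppp2r2b, Usp11, Uchl1, Gabra3, Vstm2a, Pcdh10, Tmem130 and Usp48. Among those that it moved onto 0 were those of Psmb8, Ik and Arxes1. The block changed no call at an adjusted p under 0.05. The median log2 change of 0.07 was 0.0043 with quantile normalization and 0.0499 to 0.1006 with each array left out. The bounded count of 5186 was 5165 to 5183 with each array left out, 8796 of 8835 at a mean signal of 6 or more, and 2118 of 2123 at 8 or more. With exon-level medians it was 4508 of 4523.

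Of the 1747 values of named genes under the alternatives, 1576 kept their direction and 171, in 65 genes, had the other sign, 18 of them with quantile normalization, 19 with exon-level medians and 28 without wild-type array 1. None was called. In 162 the value moved by less than its standard error, and in 9 by that much or more. These 9 were Dyrk1a at -0.0526 with quantile normalization, Arf1 at 0.0371, B3gnt7 at 0.0638, Ptch1 at -0.0662 and Ube2d3 at -0.0281 with exon-level medians, and Kcnj3 at -0.0698 without both arrays numbered 3. With each array left out, Nrep ranged from -0.1734 to 0.1378, Cox5a from -0.1610 to 0.1637 and Col1a1 from -0.3504 to 0.0440, turning without wild-type array 1 for Nrep and Cox5a and without wild-type array 2 for Col1a1. Of the list medians, 396 moved by less than the spread between arrays and 9 by more, among them granule neurons at -0.0466 with quantile normalization, -0.0447 without Usp15-deficient array 1 and 0.0694 without wild-type array 1. Medians among the 396 could still change sign. With quantile normalization that of oxidative phosphorylation went from 0.0402 to -0.0223.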

Other observations

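Below the limit on signal, the clusters of smallest p with a single symbol included the following, and none was called at an adjusted p under 0.05. Mrpl48, a protein of the mitochondrial ribosome, had 2.55, 2.46 and 2.33 in Usp15-deficient arrays, against 1.81, 1.81 and 1.58 in wild-type arrays, a log2 change of 0.71 (SE 0.11). Ppid, a cyclophilin, had 5.19, 5.07 and 5.12 against 4.74, 4.64 and 4.69, a change of 0.43 (SE 0.08). Over the median of exon-level probe sets the change was 0.03 for Mrpl48 and 0.18 for Ppid. The mean signal of Mrpl48, 2.09, lay far below the array medians of 6.09 to 6.17. Whether so low a signal stands above background was not tested. The groups did not overlap in these genes, which were picked by p. Of all clusters with a single symbol, 6.38% did not overlap in the higher direction.

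On the lower side, Olfr341, an olfactory receptor gene, had 5.02, 4.98 and 4.99 in Usp15-deficient arrays, against 5.76, 5.52 and 5.63 in wild-type arrays, a log2 change of -0.64 (SE 0.09). Clec7a, the beta-glucan receptor dectin-1 of myeloid cells, had 4.54, 4.70 and 4.82 against 5.12, 5.01 and 5.12, a change of -0.40 (SE 0.10). These genes too were picked by p, and the groups did not overlap in either. Of all clusters with a single symbol, 2.84% did not overlap in the lower direction. Olfr341 had 1 exon-level probe set, at -0.64, and Clec7a had -0.52 over its exon-level probe sets. Over muscle arrays of the same genotypes the change was 0.55 for Olfr341 and -0.16 for Clec7a.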
